A study of Mus musculus with 9 samples.

Results

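Regulatory T cells (Tregs) are CD4 T cells that restrain other immune cells, and 9 genes that define them were followed across 5 Treg libraries of mice. The genes are Foxp3, Il2ra, Ctla4, Ikzf2, Ikzf4, Nrp1, Gpr83, Lrrc32 and Capg, chosen by symbol from established Treg biology, out of 24016 symbols in the Treg table. Where a symbol had several transcripts, the one with the highest mean over the 5 libraries stood for it. All 9 passed the filter on low values, a mean of at least 10 normalized reads, as did 12206 symbols in all.

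Tregs were sorted from lymph nodes that drain the skin. The TSLPR– Treg_Mi2 group had 1 library, the TSLPR WT Treg_Mi2 group had 2 and the Ctl Treg group had 2; they are called TSLPR-negative Mi2, TSLPR WT Mi2 and Ctl Tregs here. Crlf2 encodes TSLPR, through which cells sense the epithelial cytokine TSLP. Chd4 encodes Mi-2β, an ATPase that remodels nucleosomes. Columns of the deposited table carry the letters WT for the Ctl group, Mi2KO for the TSLPR WT Mi2 group and TMDKO for the TSLPR-negative group. TMDKO was assigned to that group as the only column name left. The columns name all 5 libraries skin Tregs. The cell type in which Mi-2β was removed, the driver of that deletion, the strain, age and sex of the mice, and whether libraries were separate mice or pools were not stated in the labels. The p-values therefore measure the spread between these libraries, which may be technical. The series also held keratinocytes sorted from adult epidermis, 2 libraries of Mi2 and 2 of WT skin, which are used below only for the level of the same genes outside Tregs.

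Foxp3 is the transcription factor that specifies the Treg lineage, and its loss in mice leads to fatal autoimmunity. It acts with Ikaros-family factors, Helios (Ikzf2) and Eos (Ikzf4), and maintains high levels of the interleukin-2 (IL-2) receptor alpha chain CD25 (Il2ra) and of the inhibitory receptor CTLA-4 (Ctla4). Nrp1 is a co-receptor for semaphorins and VEGF, Gpr83 a G protein-coupled receptor, Lrrc32 (GARP) a surface docking protein for latent TGF-beta, and Capg an actin filament capping protein of the gelsolin family. In skin-draining nodes Tregs hold both resting, lymphoid-type cells and activated cells that travel to tissue, and these genes are known to differ between such states.

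Summed over transcripts, the Treg libraries held between 21849381 and 32238992 reads, with a read shared by transcripts of a gene counted for each. The lowest count of any of the 9 genes in any library was 543 reads. Values below are the authors' normalized reads, in which all 5 libraries have 1 common total. Crlf2 checked the TSLPR label, with 51.5 normalized reads in TSLPR-negative Mi2 Tregs, 816 and 715 in TSLPR WT Mi2 Tregs and 395 and 742 in Ctl Tregs. Chd4 had 15392 normalized reads in TSLPR-negative Mi2, 12374 and 13659 in TSLPR WT Mi2 and 11757 and 15129 in Ctl Tregs, so the Mi2 label did not show as a low Chd4 level in the Tregs themselves.

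Sex-linked transcripts set the libraries apart. Xist, the RNA that coats the inactive X chromosome of female cells, had 11903 normalized reads in TSLPR-negative Mi2 Tregs, 19.4 and 6.97 in TSLPR WT Mi2 Tregs and 25266 and 8678 in Ctl Tregs. Ddx3y, an RNA helicase gene on the Y chromosome, had 0.84 normalized reads in TSLPR-negative Mi2, 2378 and 1688 in TSLPR WT Mi2 and 7.1 and 736 in Ctl Tregs. The TSLPR WT Mi2 libraries thus carried Y transcripts with almost no Xist, the TSLPR-negative library and Ctl replicate 1 carried Xist with almost no Y transcripts, and Ctl replicate 2 carried both. The Y-linked genes Eif2s3y, Kdm5d and Uty showed the same split. This difference coincides fully with the TSLPR-negative against TSLPR WT comparison, where receptor state and these transcripts cannot be told apart, and in part with the comparison of TSLPR WT Mi2 with Ctl. These genes were picked after their values were seen.

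**Figure D1:**
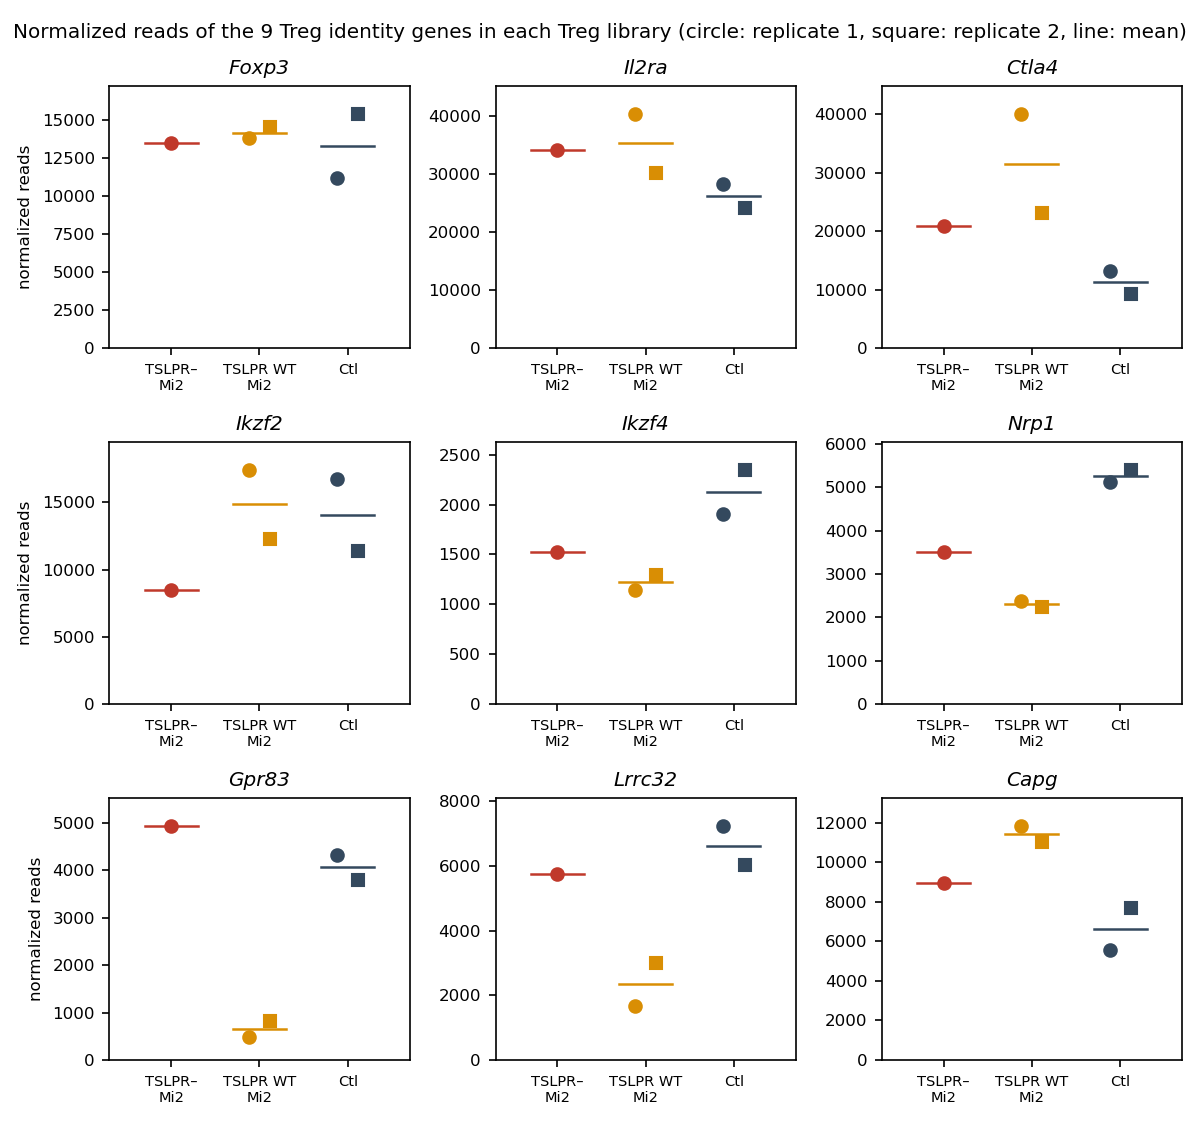
Normalized reads (vertical axes, from 0) of the 9 genes in the TSLPR-negative Mi2, TSLPR WT Mi2 and Ctl Treg libraries, with circles for replicate 1, squares for replicate 2 and lines for group means. Gpr83 had 4934 normalized reads in TSLPR-negative Mi2, 479 and 828 in TSLPR WT Mi2 and 4331 and 3799 in Ctl Tregs, while Foxp3 stayed between 11159 and 15371 in all 5 libraries.

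Foxp3 itself showed no detectable change. Per kilobase of transcript it was above 98.4% of tested genes in TSLPR-negative Mi2, 98.3% in TSLPR WT Mi2 and 98.5% in Ctl Tregs, so the lineage factor was high in every group. It had 13460 normalized reads in TSLPR-negative Mi2 Tregs, 13778 and 14517 in TSLPR WT Mi2 Tregs and 11159 and 15371 in Ctl Tregs. The TSLPR-negative and TSLPR WT values all lay between the 2 Ctl values. The fitted log2 change was 0.11 for TSLPR WT Mi2 against Ctl (95% interval -0.37 to 0.59, adjusted p = 0.755, limma with Benjamini-Hochberg adjustment over 12206 genes). That interval runs from 0.774-fold to 1.51-fold, so changes of that size are not shown to be absent. For TSLPR-negative against TSLPR WT Mi2 the log2 change was -0.07 (interval -0.66 to 0.52, adjusted p = 0.962), and against Ctl it was 0.04 (interval -0.55 to 0.63, adjusted p = 0.982). Without Ctl replicate 1 the TSLPR WT Mi2 against Ctl value was -0.12. The sign of the TSLPR-negative against Ctl value also changed in some settings, and that of TSLPR-negative against TSLPR WT Mi2 was the same in 16 of 16. Foxp3 lies on the X chromosome (mm9 chrX:7156802-7172369, plus strand).

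The Foxp3 locus has 3 transcripts in the table. The longest and the shortest start at different bases (7156802 and 7157609) and differ by 141 bases in net length. Reads of the longest exceeded those of the shortest by 3.71% of its own in TSLPR-negative Mi2 Tregs. The excess was 2.3% and 2.28% in TSLPR WT Mi2 Tregs and 2.97% and 2.86% in Ctl Tregs. These net differences stayed low in every library. RefSeq (GRCm38.p6) gives 2 start sites for Foxp3, and the 250 bases before the second are shown because they hold the only match found in the windows of these genes to any of 4 motifs searched on both strands, here a STAT-type palindrome (TTCNNNGAA, capitals). STAT factors carry signals from the IL-2 receptor to the nucleus. That motif occurs in 7.01% of 32817 promoter windows of the same length. The others searched were a forkhead motif (TGTTTAC, 3.16% of windows), an AP-1 motif (TGANTCA, 6.75%) and a RUNX motif (TGTGGT, 14%).
Foxp3, chrX:7580233-7580482, plus strand: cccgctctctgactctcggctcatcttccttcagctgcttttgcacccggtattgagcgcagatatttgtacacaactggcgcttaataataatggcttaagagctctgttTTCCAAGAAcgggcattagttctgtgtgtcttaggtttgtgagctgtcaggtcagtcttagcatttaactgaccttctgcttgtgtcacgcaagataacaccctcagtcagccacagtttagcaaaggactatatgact

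Around this level of Foxp3 the other genes split 3 ways in the TSLPR WT Mi2 Tregs. Of the 9 genes, 6 differed from Ctl at an adjusted p under 0.05, 2 higher (Ctla4 and Capg) and 4 lower (Gpr83, Lrrc32, Nrp1 and Ikzf4); Foxp3, Il2ra and Ikzf2 did not pass. Over all genes tested, 27.7% were called in this comparison, 14.7% higher and 13% lower. The 2 groups did not overlap for 7 of the 9 genes, 3 higher and 4 lower, a pattern that 32.9% of all genes showed upward and 32.7% downward. The 6 called genes each kept their sign in 18 of 18 alternative settings. These include the fit without Ctl replicate 1. In that fit the remaining Ctl library still had 8678 normalized reads of Xist, against 19.4 and 6.97 in TSLPR WT Mi2 Tregs. The part of the sex-linked transcripts in these calls was not tested. Capg and Ikzf4 were each called in only 14 of the 18 settings, with log2 changes of 0.57 to 1.04 and -0.94 to -0.64. With no filter on low values limma called 0 of the 9 and 0 genes in all. edgeR on the recovered reads with no filter called 6 of the 9 and 22.9% of all genes.

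**Figure D2:**
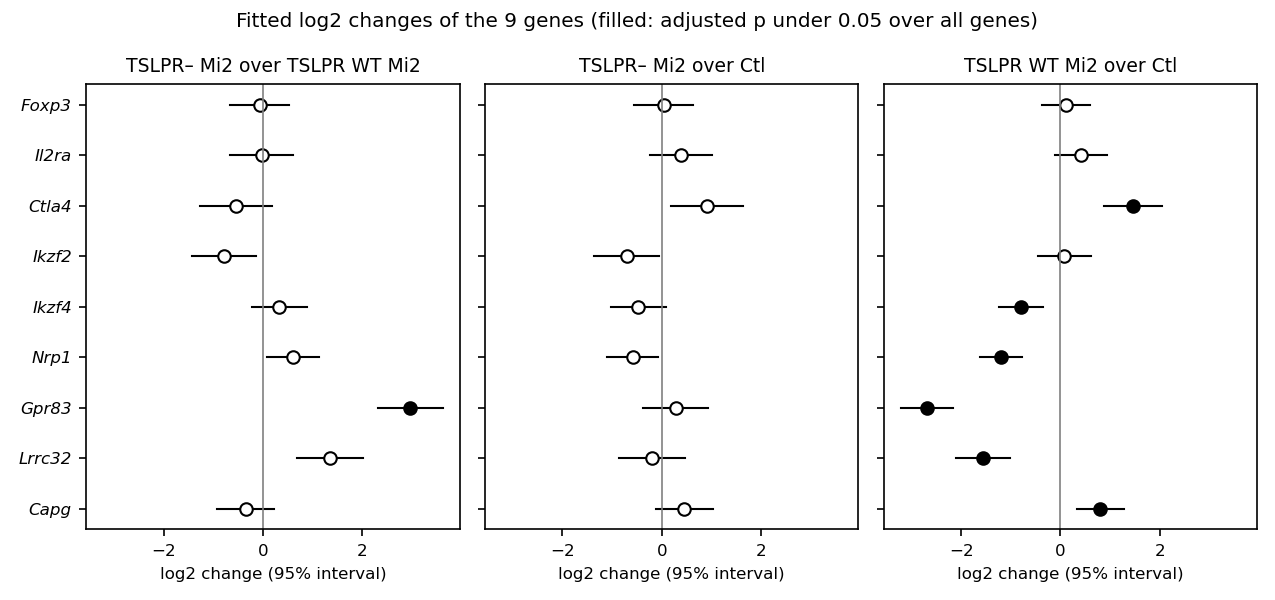
Fitted log2 change (horizontal axes) with its 95% interval for each of the 9 genes in TSLPR-negative over TSLPR WT Mi2 Tregs, TSLPR-negative Mi2 over Ctl Tregs and TSLPR WT Mi2 over Ctl Tregs. Filled points have an adjusted p under 0.05 over all genes: 1 (Gpr83), 0 and 6 genes in these panels.

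Gpr83 changed most among the 9 genes. It had 4934 normalized reads in TSLPR-negative Mi2 Tregs, 479 and 828 in TSLPR WT Mi2 Tregs and 4331 and 3799 in Ctl Tregs. Both TSLPR WT Mi2 libraries lay far below the other 3. In TSLPR WT Mi2 Tregs Gpr83 fell to 0.155-fold of Ctl (log2 change -2.69, SE 0.249, adjusted p = 8.7e-06) and stood at rank 33 by p among the 12206 genes. Per kilobase of transcript, it was above 95.8% of tested genes in Ctl Tregs and 96.6% in TSLPR-negative Mi2 Tregs, and above 60.1% in TSLPR WT Mi2 Tregs.

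Gpr83 also differed between the Mi2 groups, in a comparison that shares the TSLPR WT Mi2 libraries with the first. TSLPR-negative Mi2 Tregs had 7.82 times the TSLPR WT Mi2 level (95% interval 4.98 to 12.3, log2 change 2.97, SE 0.305, adjusted p = 2.9e-04), rank 4 by p. It was the only one of the 9 genes called there, where 0.942% of all genes were called. The lone TSLPR-negative library is assumed in the fit to vary like the other groups. Against Ctl, the TSLPR-negative log2 change was 0.28 (interval -0.37 to 0.93, adjusted p = 0.804). The call against TSLPR WT Mi2 was lost with limma without the intensity trend (adjusted p = 0.132) and with no filter on low values (adjusted p = 0.452). In limma 4 of the 9 genes had an unadjusted p under 0.05 between the Mi2 groups, as did 11.9% of all genes. They were Gpr83, Lrrc32, Nrp1 and Ikzf2. With 1 library, the genes not called are not shown to be equal in these groups.

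Xist moved in the same direction as Gpr83 in the 2 comparisons that called it, and the Y transcripts in the opposite direction. Within Ctl the libraries differ in Y transcripts as well: Ctl replicate 2, with 736 normalized reads of Ddx3y, had 3799 of Gpr83, and Ctl replicate 1, with 7.1 of Ddx3y, had 4331 of Gpr83. With Ctl replicate 2 as the only Ctl library, the log2 change of Gpr83 in TSLPR WT Mi2 Tregs was -2.59. That Ctl library still had 8678 normalized reads of Xist, against 19.4 and 6.97 in TSLPR WT Mi2 Tregs. The part of sex in the differences was not tested. In bulk RNA, fewer cells that express a gene and less RNA per cell cannot be told apart.

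Lrrc32 was also lowest in TSLPR WT Mi2 Tregs, with a smaller range. It had 5751 normalized reads in TSLPR-negative Mi2 Tregs, 1678 and 3012 in TSLPR WT Mi2 Tregs and 7229 and 6028 in Ctl Tregs. The TSLPR WT Mi2 values were again the lowest, and the TSLPR-negative value lay just under the Ctl values. In TSLPR WT Mi2 Tregs the log2 change against Ctl was -1.55 (SE 0.255, adjusted p = 4.5e-04), or 0.341-fold. The TSLPR-negative library was 2.56-fold above TSLPR WT Mi2 (log2 change 1.35, SE 0.313), which did not pass at an adjusted p of 0.0573. That p lies near the threshold, and 8 of 16 alternative settings called it. Against Ctl the TSLPR-negative log2 change was -0.20 (adjusted p = 0.878).

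Nrp1, a surface protein used to mark Tregs of thymic origin in mice, also fell. It had 3500 normalized reads in TSLPR-negative Mi2 Tregs, 2373 and 2241 in TSLPR WT Mi2 Tregs and 5119 and 5396 in Ctl Tregs. Replicates differed by 1.06-fold within TSLPR WT Mi2 and by 1.05-fold within Ctl, and the TSLPR-negative library lay between the groups. The log2 change of TSLPR WT Mi2 against Ctl was -1.19 (SE 0.197, adjusted p = 4.7e-04). TSLPR-negative Mi2 Tregs differed from TSLPR WT Mi2 by 0.60 (adjusted p = 0.317) and from Ctl by -0.59 (adjusted p = 0.278) on the log2 scale, and neither passed.

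Ikzf4 (Eos), a co-repressor that works with Foxp3, had the lowest level per kilobase of the 9 genes in Ctl Tregs. It had 1525 normalized reads in TSLPR-negative Mi2 Tregs, 1147 and 1298 in TSLPR WT Mi2 Tregs and 1908 and 2346 in Ctl Tregs. The groups did not overlap, and the TSLPR-negative library lay between them. Its fall in TSLPR WT Mi2 Tregs had a log2 change of -0.79 (SE 0.211, adjusted p = 0.0119). This call ended without Ctl replicate 2 (log2 change -0.64, adjusted p = 0.0683), without TSLPR WT Mi2 replicate 1 (log2 change -0.70, adjusted p = 0.083) and in limma without trend (adjusted p = 0.0624).

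The windows of 250 bases before the starts of Gpr83 and Nrp1 (RefSeq, GRCm38.p6) are shown as the 2 genes of the lower group with an entry. Their GC content was 66.8% and 64.4%, above the median of 52.4% over all promoter windows, and none of the 4 motifs was found in either.
Gpr83, chr9:14859960-14860209, plus strand: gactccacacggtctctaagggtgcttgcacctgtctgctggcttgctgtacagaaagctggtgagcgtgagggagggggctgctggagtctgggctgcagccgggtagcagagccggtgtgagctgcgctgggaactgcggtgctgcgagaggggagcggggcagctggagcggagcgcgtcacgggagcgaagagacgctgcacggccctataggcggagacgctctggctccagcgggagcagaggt
Nrp1, chr8:128358823-128359072, plus strand: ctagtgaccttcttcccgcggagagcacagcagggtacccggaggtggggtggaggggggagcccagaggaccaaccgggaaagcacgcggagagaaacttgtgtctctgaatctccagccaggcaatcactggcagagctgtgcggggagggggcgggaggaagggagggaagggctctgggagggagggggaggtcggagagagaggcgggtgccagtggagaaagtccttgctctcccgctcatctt

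Ctla4 and Capg went the other way. Ctla4 encodes the receptor that competes with CD28 for CD80 and CD86. It had 20804 normalized reads in TSLPR-negative Mi2 Tregs, 40011 and 23058 in TSLPR WT Mi2 Tregs and 13178 and 9247 in Ctl Tregs. Every Mi2 library lay above both Ctl libraries, and the TSLPR WT Mi2 replicates differed by 1.74-fold. In TSLPR WT Mi2 Tregs Ctla4 rose 2.75-fold over Ctl (95% interval 1.83 to 4.14, log2 change 1.46, SE 0.276, adjusted p = 0.00132). In TSLPR-negative Mi2 Tregs the log2 change was 0.91 against Ctl (interval 0.19 to 1.64, adjusted p = 0.214) and -0.55 against TSLPR WT Mi2 (interval -1.27 to 0.18, adjusted p = 0.583), and neither passed. The longer of 2 Ctla4 transcripts has 109 more bases, which took 8.42% of its reads in TSLPR-negative Mi2, 8.31% and 9.67% in TSLPR WT Mi2 and 7.08% and 9.86% in Ctl Tregs. That share overlapped between the groups while the level did not.

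Capg had 8930 normalized reads in TSLPR-negative Mi2 Tregs, 11833 and 11003 in TSLPR WT Mi2 Tregs and 5559 and 7674 in Ctl Tregs. The TSLPR-negative library lay between the groups. The rise in TSLPR WT Mi2 Tregs was 1.75-fold (log2 change 0.80, SE 0.220, adjusted p = 0.0136), with no overlap between the groups. It did not pass without Ctl replicate 1 (log2 change 0.57, adjusted p = 0.105), without TSLPR WT Mi2 replicate 1 (log2 change 0.75, adjusted p = 0.0731) or in limma without trend (adjusted p = 0.072). The windows before the starts of Ctla4 and Capg are shown as those of the higher group. Their GC content was 42.4% and 57.6%, and they held none of the 4 motifs.
Ctla4, chr1:60908775-60909024, plus strand: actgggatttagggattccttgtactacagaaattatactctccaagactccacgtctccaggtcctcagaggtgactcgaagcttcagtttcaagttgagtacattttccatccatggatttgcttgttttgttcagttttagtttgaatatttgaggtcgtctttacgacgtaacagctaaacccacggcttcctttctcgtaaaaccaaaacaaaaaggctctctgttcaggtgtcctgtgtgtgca
Capg, chr6:72549397-72549646, plus strand: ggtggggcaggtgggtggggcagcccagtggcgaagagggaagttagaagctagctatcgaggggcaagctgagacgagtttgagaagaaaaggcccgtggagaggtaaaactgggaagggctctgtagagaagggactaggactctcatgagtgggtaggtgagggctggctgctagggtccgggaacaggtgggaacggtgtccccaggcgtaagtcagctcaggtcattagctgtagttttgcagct

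Il2ra and Ikzf2 did not pass in any of the 3 comparisons. Il2ra had 34192 normalized reads in TSLPR-negative Mi2 Tregs, 40340 and 30193 in TSLPR WT Mi2 Tregs and 28215 and 24159 in Ctl Tregs. All 3 Mi2 values were above both Ctl values, with a log2 change of 0.42 in TSLPR WT Mi2 (interval -0.10 to 0.94, adjusted p = 0.217) and 0.39 in TSLPR-negative Mi2 Tregs (interval -0.24 to 1.02, adjusted p = 0.671). The TSLPR-negative library lay within the TSLPR WT range.

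Ikzf2 (Helios), which stabilises the Treg state, had 8466 normalized reads in TSLPR-negative Mi2 Tregs, 17405 and 12284 in TSLPR WT Mi2 Tregs and 16722 and 11413 in Ctl Tregs. The TSLPR WT Mi2 and Ctl values overlapped, and the TSLPR-negative library was the lowest of the 5. Its log2 change was -0.79 against TSLPR WT Mi2 (interval -1.44 to -0.14, adjusted p = 0.292) and -0.71 against Ctl (interval -1.36 to -0.06, adjusted p = 0.311). Replicates differed by 1.42-fold within TSLPR WT Mi2 and by 1.47-fold within Ctl. For TSLPR WT Mi2 against Ctl the log2 change was 0.08 (adjusted p = 0.839), and its sign changed when Ctl replicate 2 or TSLPR WT Mi2 replicate 1 was left out.

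Between TSLPR-negative Mi2 and Ctl Tregs, 0 of the 9 genes passed in limma, against 3.15% of all genes called. At an unadjusted p under 0.05, 3 of the 9 did (Ctla4, Nrp1 and Ikzf2), against 13.3% of all genes. edgeR and DESeq2 on the recovered reads also called 0 of the 9, and edgeR with no filter on low values called 1, Ctla4, at an adjusted p of 0.0167, and 4.82% of all genes. Intervals were wide with 1 library, so the 9 genes are not shown to be equal in these groups.

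The position of the TSLPR-negative library between the other groups differed from gene to gene. Of the log2 distance from the TSLPR WT Mi2 mean to the Ctl mean, the TSLPR-negative library stood at 111% for Gpr83, 87.2% for Lrrc32, 50.6% for Nrp1, 43.9% for Capg, 40.5% for Ikzf4 and 37.4% for Ctla4, the 6 genes called in TSLPR WT Mi2 against Ctl. The comparisons share the TSLPR WT Mi2 libraries, so these shares are a description of 5 libraries. The plot of all genes shows where the 9 lie.

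**Figure D3:**
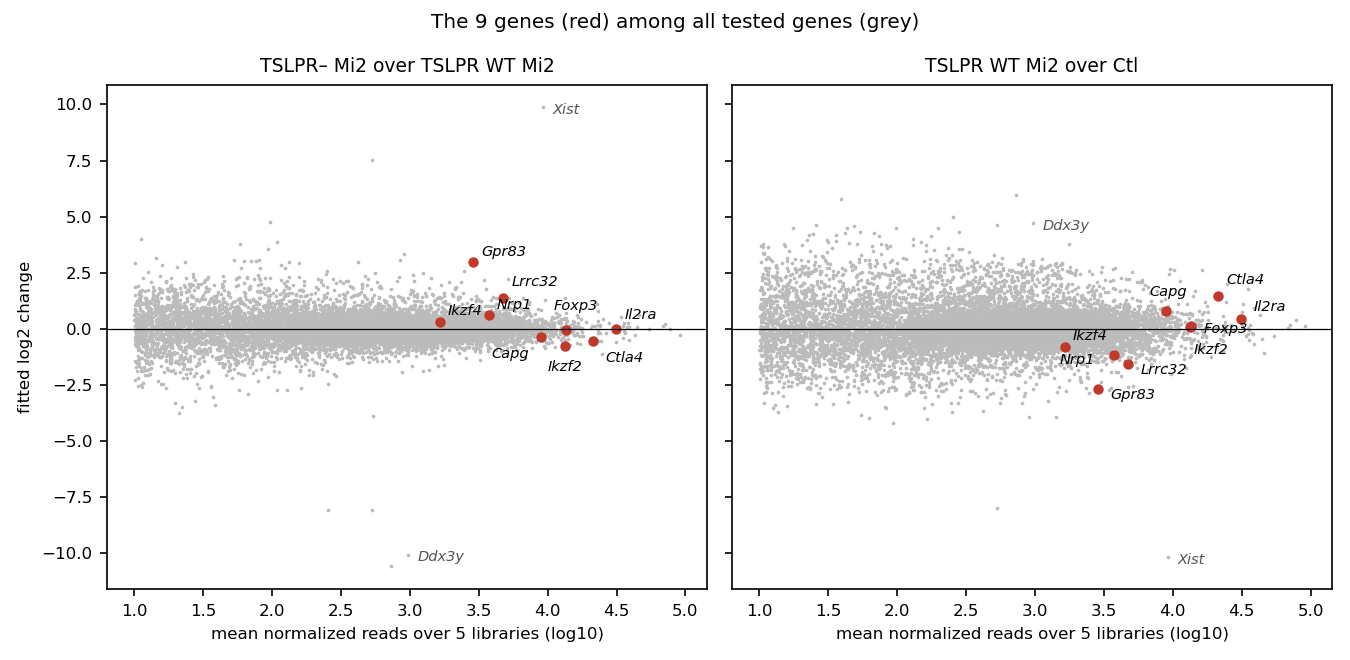
Fitted log2 change (vertical axes) against mean normalized reads over 5 libraries (log10, horizontal axes) for 12206 genes, with the 9 genes in red: TSLPR-negative over TSLPR WT Mi2 Tregs on the left and TSLPR WT Mi2 over Ctl Tregs on the right. Gpr83 lies at 2.97 on the left and -2.69 on the right, and the points far outside the cloud include the sex-linked Xist and Ddx3y.

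The 9 genes also changed places among themselves. Per kilobase of transcript, Il2ra led in Ctl Tregs with 5468 and 6386 normalized reads, ahead of Ctla4 with 4799 and 6839 and Capg with 4026 and 5557. These 3 overlapped, so their order in Ctl was within the spread. In TSLPR WT Mi2 Tregs Ctla4 led with 11966 to 20763 normalized reads per kilobase, followed by Capg with 7967 to 8568 and Il2ra with 6834 to 9131. Gpr83 stood at place 5 of the 9 in Ctl and in TSLPR-negative Mi2 Tregs and last in TSLPR WT Mi2 Tregs, where its 213 and 369 normalized reads per kilobase overlapped the 321 and 364 of Ikzf4.

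Levels were also set against Foxp3 in the same library. The level of Gpr83 per kilobase was 62.3% of that of Foxp3 in TSLPR-negative Mi2 Tregs, 5.91% and 9.69% in TSLPR WT Mi2 Tregs and 65.9% and 42% in Ctl Tregs. Lrrc32 per Foxp3 was 42.8% in TSLPR-negative Mi2, 12.2% and 20.8% in TSLPR WT Mi2 and 64.9% and 39.3% in Ctl Tregs. Ctla4 per Foxp3 was 306% in TSLPR-negative Mi2, 575% and 315% in TSLPR WT Mi2 and 234% and 119% in Ctl Tregs. For Gpr83 and Lrrc32 the TSLPR-negative library lay within the Ctl range of this ratio. For Ctla4 it lay above that range. Nrp1 per Foxp3 was 16.8% in TSLPR-negative Mi2, 11.1% and 9.98% in TSLPR WT Mi2 and 29.7% and 22.7% in Ctl Tregs, and Capg per Foxp3 was 183%, then 237% and 209%, then 138% and 138% in the same groups. For these 2 genes the TSLPR-negative library lay between the others.

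The pattern nearest to that of Gpr83, the gene with the widest range among the 9, was sought among 9772 genes with a mean of at least 100 normalized reads. Likeness was the root mean square difference of log2(value + 1), centred on each gene's mean, over 5 libraries. The nearest was Ly6c1, a surface protein of the Ly6 family, at 0.169, then Art4 at 0.229, Bcl2 at 0.323, Hid1 at 0.327 and Ssbp2 at 0.328. Ly6c1 had 1411 normalized reads in TSLPR-negative Mi2, 108 and 256 in TSLPR WT Mi2 and 1347 and 1120 in Ctl Tregs. Lrrc32 was at rank 117 by the same measure. With 5 libraries in 3 groups this likeness is a description.

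**Figure D4:**
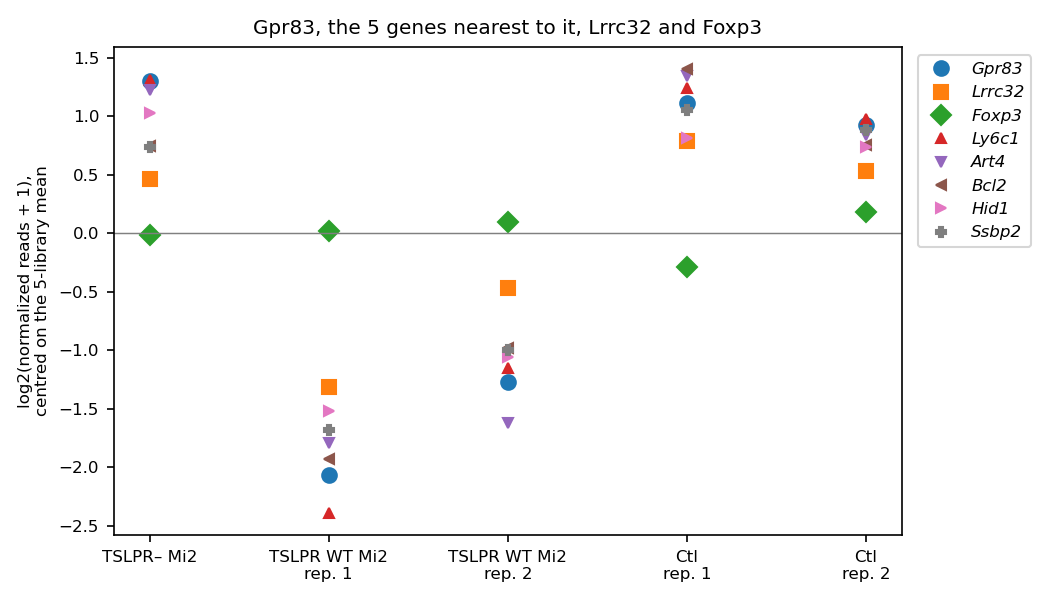
Log2(normalized reads + 1), centred on each gene's mean over 5 libraries (vertical axis), for Gpr83, the 5 genes nearest to it, Lrrc32 and Foxp3 in each Treg library. Gpr83 and its 5 neighbours are low in both TSLPR WT Mi2 libraries and high in the other 3, Lrrc32 spans less, and Foxp3 stays near 0.

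For Foxp3 the nearest genes were Rce1 at 0.0228, Aes, Mllt1, Aen and Tmem201. All 5 varied little: Rce1 had 484 normalized reads in TSLPR-negative Mi2, 482 and 531 in TSLPR WT Mi2 and 401 and 541 in Ctl Tregs. None of the other 8 genes was close to Foxp3 by this measure: Il2ra (0.311) was at rank 5022 and Capg (0.317) at rank 5165 of the 9772 genes, and the rest were farther.

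Genes that act with Foxp3 were followed as a list of 29 partners and regulators, all tested. In TSLPR WT Mi2 against Ctl Tregs 2 rose and 11 fell, with a median log2 change of -0.40, against -0.0083 over all genes. Of all genes tested, 14.7% were called higher and 13% lower. In limma without trend 7 of the 29 were called, as were 19.9% of all genes. Bach2, a repressor that keeps T cells in a resting state, had 2399 normalized reads in TSLPR-negative Mi2, 356 and 1213 in TSLPR WT Mi2 and 3777 and 3040 in Ctl Tregs (log2 change -2.36 for TSLPR WT Mi2 against Ctl, SE 0.388, adjusted p = 4.5e-04). Satb1, a chromatin organiser of T cell development, and Nr4a3, a nuclear receptor induced by T cell receptor signals, also fell, with log2 changes of -1.26 and -1.94. Without TSLPR WT Mi2 replicate 1 the calls were 2 higher and 6 lower. In TSLPR-negative against TSLPR WT Mi2 Tregs 0 of the 29 were called by limma, edgeR or DESeq2, 5 had an unadjusted p under 0.05 in limma, as did 11.9% of all genes, and edgeR with no filter called 2, as it did 3.12% of all genes. Against Ctl these counts were 0, 4 and 1, where all genes gave 13.3% and 4.82%.

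Partners and targets of the IL-2 receptor that were called in TSLPR WT Mi2 against Ctl Tregs all fell. Of 13 tested, 0 rose and 7 fell there, with a median log2 change of -0.63. Over all genes 14.7% were called higher and 13% lower, and 0.942% were called in TSLPR-negative against TSLPR WT Mi2 Tregs. In limma without trend 3 of the 13 were called for TSLPR WT Mi2 against Ctl, as were 19.9% of all genes. Bcl2, which protects cells from death, had 6367 normalized reads in TSLPR-negative Mi2, 995 and 1923 in TSLPR WT Mi2 and 10038 and 6422 in Ctl Tregs. Its log2 change was -2.54 in TSLPR WT Mi2 against Ctl (SE 0.289, adjusted p = 2.6e-05) and 2.20 in TSLPR-negative against TSLPR WT Mi2 (SE 0.354, adjusted p = 0.0129), and it was the 1 gene of the 13 called in the second. Socs1, an inhibitor of cytokine signalling, fell with a log2 change of -1.62, and Mcl1, another survival factor, with -0.85. The count of 7 was 4 without Ctl replicate 2 and 2 without TSLPR WT Mi2 replicate 2, and the Bcl2 call against TSLPR WT Mi2 was lost with limma without trend (adjusted p = 0.216).

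In the CTLA-4 and CD28 family 3 of 10 rose and 4 fell in TSLPR WT Mi2 against Ctl Tregs. Calls among all genes were 14.7% higher and 13% lower there, and 0.942% in TSLPR-negative against TSLPR WT Mi2 Tregs. Lrba, a protein that protects CTLA-4 from degradation in lysosomes, had 4557 normalized reads in TSLPR-negative Mi2, 10818 and 11382 in TSLPR WT Mi2 and 3922 and 3498 in Ctl Tregs. It rose in TSLPR WT Mi2 against Ctl (log2 change 1.58, adjusted p = 5.4e-05) and was lower in TSLPR-negative than in TSLPR WT Mi2 Tregs (log2 change -1.28, adjusted p = 0.0276), the 1 gene of this list called there. That second call was lost with limma without trend (adjusted p = 0.216). Icos, a costimulatory receptor, rose with a log2 change of 1.99, and Cd86, a CTLA-4 ligand, fell with -1.63. Cd86 is also a gene of B cells and dendritic cells, whose markers are given below.

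In the Ikaros family Ikzf3 (Aiolos) rose in TSLPR WT Mi2 against Ctl Tregs, with a log2 change of 1.10 (adjusted p = 0.00228), and Ikzf1 and Ikzf5 did not pass (log2 changes -0.32 and -0.19). That is 1 of 3 genes, where 27.7% of all genes were called. Among 9 tested genes of the Nrp1 family, plexins and semaphorins, 3 rose and 1 fell; the plexin Plxnb1 fell (-1.85) and Plxnb2 and Plxnd1 rose (1.45 and 0.86), and 2 of the 4 calls were left without Ctl replicate 1. Of 10 tested genes of the Lrrc32 family and TGF-beta activation, 0 rose and 2 fell, a share below the 27.7% of all genes called, the latent TGF-beta binding protein Ltbp1 (-2.81) and the receptor Tgfbr2 (-0.70). That count was 0 without Ctl replicate 2 and 1 without TSLPR WT Mi2 replicate 1. Of 6 tested genes of the gelsolin family 1, Vill, rose (0.92), also a share below that of all genes, and the call was lost without Ctl replicate 2, without TSLPR WT Mi2 replicate 1 and in limma without trend (adjusted p = 0.0699).

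Other Treg signature genes mostly rose. Of 30 tested, 17 were higher and 7 lower in TSLPR WT Mi2 against Ctl Tregs, with a median log2 change of 0.86. Of all genes tested, 14.7% were called higher and 13% lower. Klrg1, a receptor of activated Tregs, had 3023 normalized reads in TSLPR-negative Mi2, 4314 and 3738 in TSLPR WT Mi2 and 767 and 574 in Ctl Tregs. It rose in both Mi2 groups, by 2.60 in TSLPR WT Mi2 (adjusted p = 7.1e-06) and 2.19 in TSLPR-negative Mi2 Tregs (adjusted p = 0.00157) on the log2 scale. The calcium-binding S100a6 and S100a4 also rose in both groups, by 2.24 and 2.10 in TSLPR WT Mi2 and by 1.55 and 1.29 in TSLPR-negative Mi2 Tregs. In TSLPR-negative Mi2 against Ctl 6 of the 30 rose and 0 fell, and the calls were 9 without TSLPR WT Mi2 replicate 1 and 10 without TSLPR WT Mi2 replicate 2, 2 of them lower in each case. Without Ctl replicate 2 there were 4, and in limma without trend or with no filter 0. Klrg1, S100a6 and S100a4 had adjusted p of 0.0723, 0.0905 and 0.124 without trend and were each called in 14 of 16 settings. Both comparisons share the Ctl libraries, and 3.15% of all genes were called in TSLPR-negative Mi2 against Ctl. In TSLPR-negative against TSLPR WT Mi2 Tregs the median log2 change of the 30 was -0.27, against 0.026 over all genes. There limma and edgeR called 0 of the 30, and DESeq2 called 3, as it did 1.97% of all genes. In limma 12 of the 30 had an unadjusted p under 0.05 there, as did 11.9% of all genes.

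Genes that Tregs hold at low levels relative to other CD4 T cells fell. Of 12 tested, 0 rose and 10 fell in TSLPR WT Mi2 against Ctl Tregs, with a median log2 change of -1.82. Over all genes 14.7% were called higher and 13% lower, and 0.942% were called in TSLPR-negative against TSLPR WT Mi2 Tregs. Actn1, an actin crosslinker, had 2543 normalized reads in TSLPR-negative Mi2, 578 and 1199 in TSLPR WT Mi2 and 3522 and 4243 in Ctl Tregs, with a log2 change of -2.21 in TSLPR WT Mi2 against Ctl (adjusted p = 5.8e-05). It was the 1 gene of the list called in TSLPR-negative against TSLPR WT Mi2 (log2 change 1.61, adjusted p = 0.0431), and 11 of 16 alternative settings called it. The call was lost without TSLPR WT Mi2 replicate 1 (adjusted p = 0.103), with TMM scaling (0.0512), with DESeq2 size factors (0.0713), in limma without trend (0.300) and with no filter (0.463). The list's count there was 0 in the last 4 of these settings, 4 without Ctl replicate 1, 2 without Ctl replicate 2, 6 without TSLPR WT Mi2 replicate 2 and 5 in edgeR with no filter. Bach2 and Satb1 belong to this list and to the Foxp3 list.

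Some markers of other cells differed between the groups. The summed level of 9 B cell genes was 1102 normalized reads in TSLPR-negative Mi2, 916 and 1240 in TSLPR WT Mi2 and 5755 and 2793 in Ctl Tregs. All 9 were called lower in TSLPR WT Mi2 than in Ctl, as were 13% of all genes. In TSLPR-negative Mi2 against Ctl 6 were called lower, where 3.15% of all genes were called in either direction. The TSLPR-negative sum lay within the TSLPR WT range. Between those groups 0 of the 9 B cell genes were called by limma, edgeR or DESeq2, and 0 had an unadjusted p under 0.05. The summed CD8 genes were 1122 in TSLPR-negative Mi2, 512 and 726 in TSLPR WT Mi2 and 1252 and 1217 in Ctl Tregs, lowest in TSLPR WT Mi2. Of the 2 genes limma called 1 lower in TSLPR WT Mi2 against Ctl. There edgeR and DESeq2 called both (27.8% and 26.1% of all genes were called by these tools). In TSLPR-negative against TSLPR WT Mi2 both CD8 genes had an unadjusted p under 0.05, 0 were called by limma, edgeR or DESeq2, and edgeR with no filter called 1. The summed stroma and endothelium genes were likewise lowest there, at 4278 in TSLPR-negative Mi2, 2214 and 2980 in TSLPR WT Mi2 and 4470 and 4214 in Ctl Tregs, nearly all of it from Pecam1, which T cells can express and which was called lower in TSLPR WT Mi2 than in Ctl. Another gene of that list, the collagen Col1a1, went the other way, with 76.8 in TSLPR-negative Mi2, 65.3 and 76.7 in TSLPR WT Mi2 and 20.1 and 29.7 in Ctl Tregs, and was called higher in TSLPR WT Mi2. The macrophage and monocyte sum was 483 in TSLPR-negative Mi2, 760 and 811 in TSLPR WT Mi2 and 502 and 284 in Ctl Tregs. Of its 4 tested genes 1, the integrin Itgam, was called higher in TSLPR WT Mi2 than in Ctl. That share is near the 27.7% of all genes called in this comparison.

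T cell genes were high in every library. Each gene of this list was lower in both TSLPR WT Mi2 libraries than in both Ctl libraries. That pattern held for 32.7% of all genes. The 6 of the list summed to 49992 in TSLPR-negative Mi2, 42231 and 46140 in TSLPR WT Mi2 and 53211 and 66228 in Ctl Tregs, with 0 of 6 called by limma in each of the 3 comparisons. For TSLPR WT Mi2 against Ctl 2 of them had an unadjusted p under 0.05, as did 38.9% of all genes, and DESeq2 called 1. The CD4 T cell sum was 17688 in TSLPR-negative Mi2, 14597 and 12563 in TSLPR WT Mi2 and 16419 and 21535 in Ctl Tregs. Of its 3 genes 1, Cd40lg, was called lower in TSLPR WT Mi2 than in Ctl, where 27.7% of all genes were called. Plasma cell genes summed to 2484 in TSLPR-negative Mi2, 2216 and 1990 in TSLPR WT Mi2 and 2258 and 2044 in Ctl Tregs, and erythroid genes to 676, then 402 and 171, then 212 and 738 in the same groups; both sums overlapped between TSLPR WT Mi2 and Ctl. The plasma cell sum was nearly all Xbp1. Igj, the joining chain of antibodies, had 1.69 in TSLPR-negative Mi2, 6.17 and 5.97 in TSLPR WT Mi2 and 212 and 47.3 in Ctl Tregs and was called lower in both Mi2 groups than in Ctl, and Sdc1 was called higher in TSLPR WT Mi2. The keratinocyte genes Krt5 and Krt14 and the NK cell gene Klra8 were at 0 in all 5 libraries. Sums of the keratinocyte, dendritic cell, neutrophil and NK cell lists stayed at or below 142 normalized reads in each library. The NK cell sum was 60.8 in TSLPR-negative Mi2, 23.8 and 56.7 in TSLPR WT Mi2 and 123 and 142 in Ctl Tregs, and its 1 tested gene, Eomes, was lower in TSLPR WT Mi2 than in Ctl. The part of these markers in the results was not tested.

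Outside Tregs, sorted epidermal keratinocytes gave the level of the same genes in another table, normalized separately and described with no test. Ikzf2 had 299 and 395 normalized reads in Mi2 epidermis and 852 and 1107 in WT epidermis, and Capg had 2185 and 1740 in Mi2 and 918 and 836 in WT epidermis. For both genes the Mi2 and WT values did not overlap. Foxp3 was low, with 39.8 and 23.2 normalized reads in Mi2 and 21.8 and 18.9 in WT epidermis, apart on this scale only. These stood for 30 and 17 reads in Mi2 and 22 and 26 in WT epidermis, which overlapped. Normalized totals were not equal in this table, at 10167191 and 7740898 in Mi2 and 6948714 and 6470929 in WT epidermis. The low values of Ikzf4 and Nrp1 were also apart, while those of Lrrc32 overlapped. The share of all epidermal genes without overlap was not counted, so the lack of overlap does not set these genes apart from others. Gpr83 had 0 reads in all 4 libraries, Ctla4 at most 1 read and Il2ra at most 3 reads in any library. Ikzf4, Nrp1 and Lrrc32 lay at or below 35.6 normalized reads in each.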

How the data were processed

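RNA from 5 Treg and 4 epidermal libraries was sequenced. Per the submitters' processing notes, bcl2fastq 1.8.3, STAR and DESeq2 were used, with builds mm9 and mm10. HOMER counted reads in mm9 exons of RefSeq transcripts for the authors' Treg table, per the file headers, which list 7 libraries; 5 are in the table. The deposited signal of both tables is a read count multiplied by 1 factor per library; every value above 0 came to a whole number of reads, within 0.05, after division by the step of its library. The 33022 Treg transcripts fall under 24016 symbols, and transcripts of a gene share reads. No strand setting was listed, so overlapping antisense reads cannot be told apart.

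limma 3.58.1 in R 4.3.3 was run with an intensity trend on log2(value + 1), on symbols with a mean of at least 10, in 1 fit of 5 libraries, two-sided, with Benjamini-Hochberg adjustment over all genes and a threshold of 0.05. Folds on this scale understate changes of low genes. edgeR 4.0.16 and DESeq2 1.42.0 on recovered reads, and other scalings, filters, pseudocounts and left-out libraries, were alternatives. The fit was tested on simulated data. Promoter windows came from RefSeq; 6 of the 9 genes had an entry. The 9 genes and all lists were chosen with earlier results of these data known. Named from each list were up to 3 genes with the smallest unadjusted p over the 3 comparisons, and likeness was ranked for Foxp3 and for the gene with the widest range.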

Additional observations from a re-analysis of the deposited data

How the results depend on the processing

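Counts of the 9 genes and of all genes were recomputed under each setting. In limma with no filter on low values, 0 genes and 0 of the 9 were called in each of the 3 comparisons; 16831 genes were fitted and the prior degrees of freedom were 1.74, against 12.5 with the filter. Genes at an unadjusted p under 0.05 then numbered 5043 for TSLPR WT Mi2 against Ctl, 1741 for TSLPR-negative against TSLPR WT Mi2 and 1942 for TSLPR-negative Mi2 against Ctl, and 6, 3 and 1 of the 9 were among them. edgeR with no filter, added after that result was seen, called 3846, 525 and 811 genes and 6, 2 and 1 of the 9. For TSLPR-negative against TSLPR WT Mi2 Tregs, 115 genes were called, 65 with DESeq2 size factors, 3 with limma without trend and 241 with DESeq2; leaving out 1 library gave 159 to 453. There, 2 of the 9 (Gpr83 and Lrrc32) were called with a common total without the 50 most abundant genes, a mean of at least 50, a pseudocount of 5 or DESeq2, 0 with limma without trend, and 1 to 2 with 1 library left out. For TSLPR-negative Mi2 against Ctl, 384 genes were called, 1 with limma without trend, and 372 to 687 with 1 library left out. For TSLPR WT Mi2 against Ctl, the 6 called genes kept their sign with 1 library left out, but the calls of Capg and Ikzf4 did not always hold. The cause of these shifts was not tested.

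Signs reversed for values that were not called. Foxp3 in TSLPR-negative Mi2 against Ctl was -0.020 with DESeq2 size factors, -0.0038 with edgeR, -0.037 with DESeq2 and -0.19 to 0.27 with 1 library left out, and Foxp3 in TSLPR WT Mi2 against Ctl was -0.12 to 0.34. Other ranges with 1 library left out were -0.19 to 0.36 for Ikzf2 and -0.46 to 0.092 for Ikzf5 in TSLPR WT Mi2 against Ctl. They were -0.24 to 0.18 for Il2ra and -0.31 to 0.034 for Ikzf5 in TSLPR-negative against TSLPR WT Mi2. In TSLPR-negative Mi2 against Ctl they were -0.68 to 0.039 for Socs1, -0.12 to 0.027 for Ikzf1 and -0.23 to 0.36 for Vill, which was -0.023 with DESeq2.

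With the replicate number as a block in the 4 libraries of TSLPR WT Mi2 and Ctl, 4361 genes and 6 of the 9 were called, against 3361 and 6 without the block. Same-numbered libraries shared only a number: their deviations correlated at 0.0917 across 12206 genes.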
